A study of Mus musculus with 6 samples.

Results

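Transcript levels of 9 genes that make, break down or regulate glycogen were read from RNA sequencing of whole mouse corneas. The genes were Pygl, Pygb, Pygm, Gys1, Gbe1, Ugp2, Gyg, Gaa and Ppp1r3c, each found by its symbol among the 17794 genes of the expression table. They were grouped because Pygl stood much higher after luteolin in these data, so the difference of Pygl between the groups is given as a description without a test. The other 8 members were tested within a fit across all genes. Every mouse had been given dry eye by benzalkonium chloride, an eye-drop preservative that harms the surface of the eye. The mice then received for 10 days luteolin, a plant flavone (3 libraries), or vehicle (3 libraries). The labels give no strain, sex, age, dose or route, and undamaged corneas were not analysed here. Nothing in the labels states that each library is a different animal. The p-values therefore reflect only how much these samples vary, which may be technical variation.

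Glycogen is a branched store of glucose. The protein glycogenin starts a chain, glycogen synthase lengthens it from UDP-glucose, the branching enzyme branches it, and glycogen phosphorylase releases glucose 1-phosphate once phosphorylase kinase has switched it on. Protein phosphatase 1, held on the glycogen particle by targeting subunits, opposes the kinase. The corneal epithelium is known for its glycogen store, which is drawn on when epithelial cells migrate over a wound.

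Library totals ran from 16084855 to 16469699 estimated counts. Vehicle 2 and vehicle 3 lay apart on the second principal component, which held 8.20% of the variance against 81.1% for the first, the component that separated the groups. Krt12, the keratin of differentiated corneal epithelium, stood between 26862 and 27436 CPM (counts relative to library size, scaled by TMM factors) with luteolin and between 12532 and 16716 CPM with vehicle. Of 13838 genes tested with edgeR, 58.9% had a Benjamini-Hochberg adjusted p under 0.05, the threshold used throughout: 28.5% were higher and 30.4% lower with luteolin. All 9 members passed the filter on low counts.

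Luteolin-treated corneas held more transcript of the phosphorylase gene Pygl, of the glycogenin gene Gyg and of Ppp1r3c, a targeting subunit of protein phosphatase 1. Pygl was 7.97-fold higher, Ppp1r3c 4.64-fold and Gyg 3.25-fold. The synthase gene Gys1, the branching enzyme gene Gbe1, the UDP-glucose gene Ugp2 and the lysosomal glucosidase gene Gaa each lay within 0.18 of 0 on the log2 scale and did not pass. Of the 8 members other than Pygl, 3 rose (Gyg, Ppp1r3c and Pygb), 0 fell and 5 did not pass. The share of all tested genes that rose was 28.5%, and the median log2 fold change of the 8 was -0.04 against -0.02 over all genes tested. Because the members were chosen on this comparison, nothing is read from their count.

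**Figure D1:**
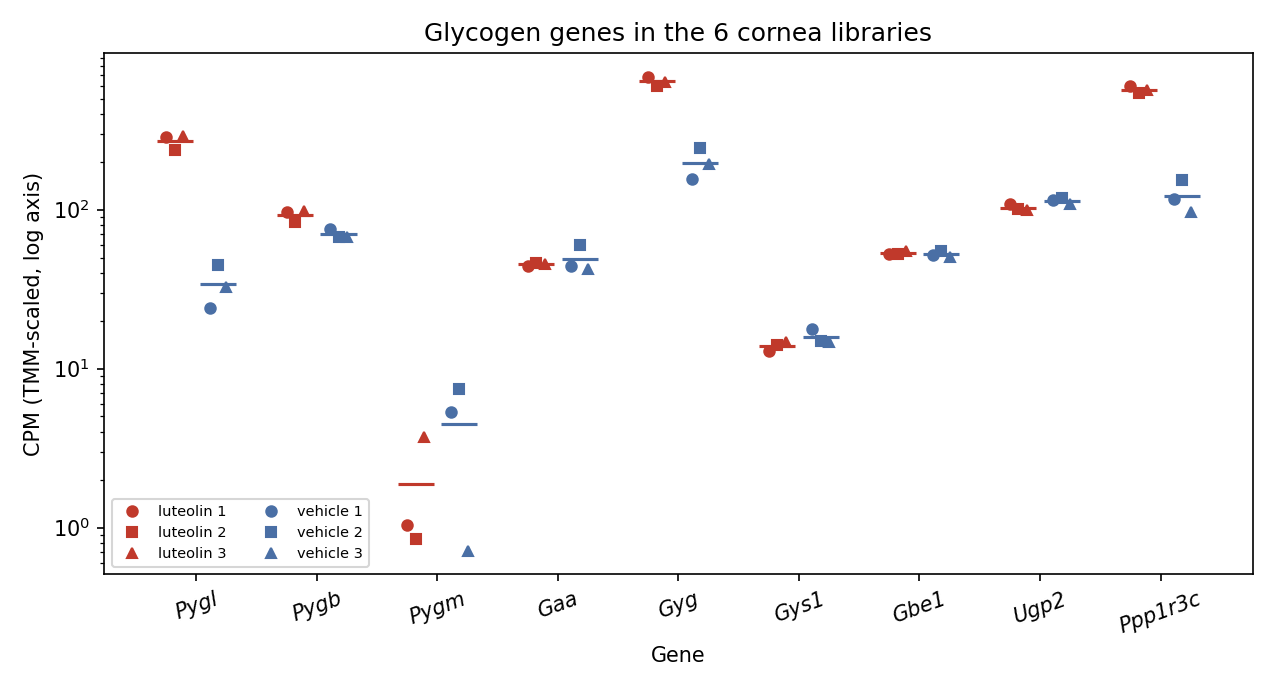
CPM (log axis) of the 9 members in each library, luteolin in red left of vehicle in blue, with a bar at the mean of 3 libraries. The groups stand clearly apart for Pygl, Gyg and Ppp1r3c, lie close together for Gaa, Gys1, Gbe1 and Ugp2, and overlap widely for Pygm.

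The promoters of the 3 members with the greatest fold are shown because these genes moved together, from RefSeq on build GRCm38.p6 (the deposited values rest on mm9, so these positions were not joined to them). Each covers 250 bases before the transcription start and 20 after it, on the minus strand, for Pygl chr12:70227664-70227933, for Gyg chr3:20155097-20155366 and for Ppp1r3c chr19:36736585-36736854. Capitals mark the letters ACGTG on either strand, chosen after the sequences were seen.
Pygl: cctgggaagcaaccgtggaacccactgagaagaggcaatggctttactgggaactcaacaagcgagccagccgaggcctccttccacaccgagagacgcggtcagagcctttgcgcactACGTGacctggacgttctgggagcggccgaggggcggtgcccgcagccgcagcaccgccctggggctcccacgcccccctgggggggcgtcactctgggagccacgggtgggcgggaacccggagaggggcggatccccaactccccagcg
Gyg: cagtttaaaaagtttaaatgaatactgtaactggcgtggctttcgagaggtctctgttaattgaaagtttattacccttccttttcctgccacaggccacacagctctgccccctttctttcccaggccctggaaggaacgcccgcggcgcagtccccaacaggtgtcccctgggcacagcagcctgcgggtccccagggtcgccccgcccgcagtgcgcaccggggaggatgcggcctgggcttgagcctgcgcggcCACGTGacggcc
Ppp1r3c: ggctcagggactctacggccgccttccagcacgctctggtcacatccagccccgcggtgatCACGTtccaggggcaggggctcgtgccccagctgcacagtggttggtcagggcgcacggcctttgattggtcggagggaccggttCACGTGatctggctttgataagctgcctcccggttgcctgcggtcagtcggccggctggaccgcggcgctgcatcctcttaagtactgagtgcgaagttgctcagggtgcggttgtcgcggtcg

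In these windows ACGTG began 131 bases before the start of Pygl. The palindrome CACGTG, the canonical E-box, which holds ACGTG on both strands, was found for 3 of the 9 members: it began 104 bases before the start of Ppp1r3c, 9 bases after that of Gyg, and 140 bases before that of Gaa, which did not pass the test. Ppp1r3c held a further ACGTG, on the opposite strand, 189 bases before its start. All 9 members matched the promoter table, with 10 promoters in all. ACGTG was found for 7 of the 9, including Pygm, Ugp2 and Gaa, which did not pass the test, and not in the windows of Gys1 and Gbe1. Over all 32851 promoters of the same length, 17.9% held ACGTG and 6.57% held CACGTG. The GC box GGGCGG, on either strand, was found for Pygl, Gys1, Ugp2 and Gyg (34.1% of all promoters), and TATAAA for 0 of the 9 (12.9%). CCAAT, on either strand, was found for Gys1, Ugp2 and Ppp1r3c (35.4%). Members were counted by gene, and the percentages by promoter. These matches describe letters only.

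Glycogen breakdown in the cytosol is carried by 3 phosphorylase genes named for the tissues in which they prevail. Pygl (gene ID 110095), the liver form, had 287.7, 236.0 and 288.6 CPM in luteolin 1, 2 and 3, against 24.2, 44.8 and 32.8 CPM in vehicle 1, 2 and 3. Every luteolin library lay more than 5-fold above the highest vehicle library, and vehicle 1 was the lowest. The means were 271 ± 30.1 CPM with luteolin and 33.9 ± 10.3 CPM with vehicle (SD, n = 3). The log2 fold change was 2.995 (SE 0.214) and ran from 2.80 without vehicle 1 to 3.25 without vehicle 2.

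Pygb (gene ID 110078), the brain form, moved far less. It had 96.9, 84.0 and 97.99 CPM in luteolin 1, 2 and 3, against 75.2, 67.4 and 67.1 CPM in vehicle 1, 2 and 3. The groups did not overlap, with luteolin higher, as for 33.8% of all tested genes (67.4% in either direction), and luteolin 2 the lowest of its group. Pygb was 1.33-fold higher with luteolin (log2 fold change 0.41, SE 0.0814, edgeR adjusted p = 0.00408).

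Pygm (gene ID 19309), the skeletal muscle form, was low and uneven. It had 1.03, 0.845 and 3.73 CPM in luteolin 1, 2 and 3, against 5.31, 7.43 and 0.715 CPM in vehicle 1, 2 and 3. The groups overlapped, since luteolin 3 was high and vehicle 3 the lowest of all. The log2 fold change was -1.26 (SE 0.835, edgeR adjusted p = 0.228). Without vehicle 3 it was -1.78 and passed (adjusted p = 0.0356, over the alternatives 0.0356 to 0.520), and without luteolin 3 it was -2.25 and did not pass.

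Skeletal muscle genes moved with Pygm from library to library. The mean log2 CPM of 11 tested muscle genes was -0.59, -0.92 and 2.95 in luteolin 1, 2 and 3 and 3.42, 4.17 and -1.54 in vehicle 1, 2 and 3, and the 6 libraries had the same order by Pygm as by this mean. The summed level of all 13 listed muscle genes ran from 17.7 to 100.2 CPM with luteolin and from 15.1 to 233 CPM with vehicle. None of the 11 tested passed (0 higher, 0 lower), where 58.9% of all tested genes did. With the muscle mean as a covariate the log2 fold change of Pygm was -0.19 (SE in that fit 0.226, edgeR adjusted p = 0.502). Phkg1 and Ppp1r3a, the muscle forms of the catalytic phosphorylase kinase subunit and of a targeting subunit, had too few counts to be tested, and their counts were also highest in vehicle 1 and 2.

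**Figure D2:**
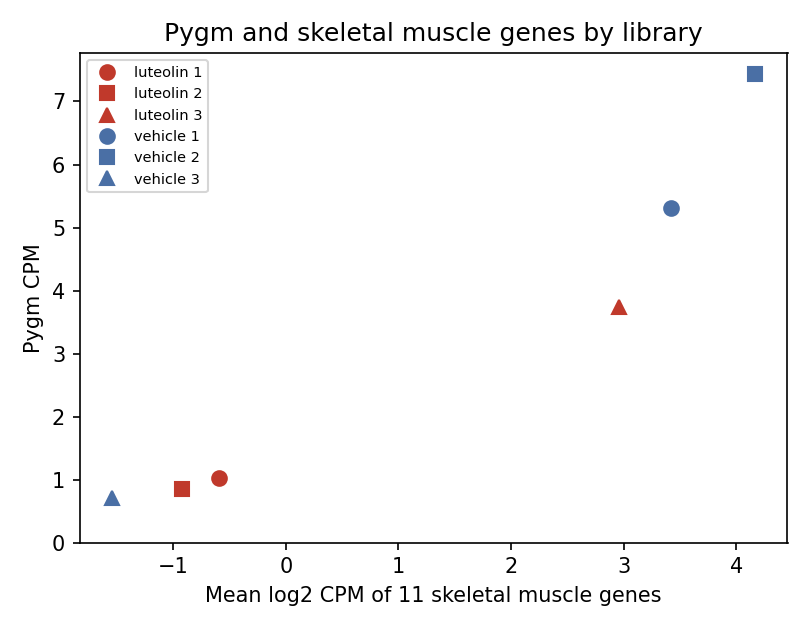
Pygm CPM (vertical axis) against the averaged log2 CPM of 11 genes of skeletal muscle (horizontal axis), a point per library. Vehicle 3, luteolin 1 and luteolin 2 lie at the lower left and luteolin 3, vehicle 1 and vehicle 2 at the upper right, so the order does not follow the groups.

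TPM values, which are scaled by transcript length, allow levels to be compared between genes. The phosphorylase genes summed to 211, 172 and 209.8 TPM in luteolin 1, 2 and 3, against 49.0, 58.5 and 46.5 TPM in vehicle 1, 2 and 3. Pygl made up 80.4%, 79.6% and 79.7% of that sum in luteolin 1, 2 and 3, against 29.3%, 44.8% and 40.4% in vehicle 1, 2 and 3. Pygb, the more abundant form in every vehicle library, was the less abundant of the pair in every luteolin library. The Pygl share averaged 79.9 ± 0.470% with luteolin and 38.1 ± 8.003% with vehicle (SD, n = 3), and the Pygm share 0.524 ± 0.420% with luteolin and 4.81 ± 3.46% with vehicle (SD, n = 3). These shares include the value that chose the members and carry no test.

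**Figure D3:**
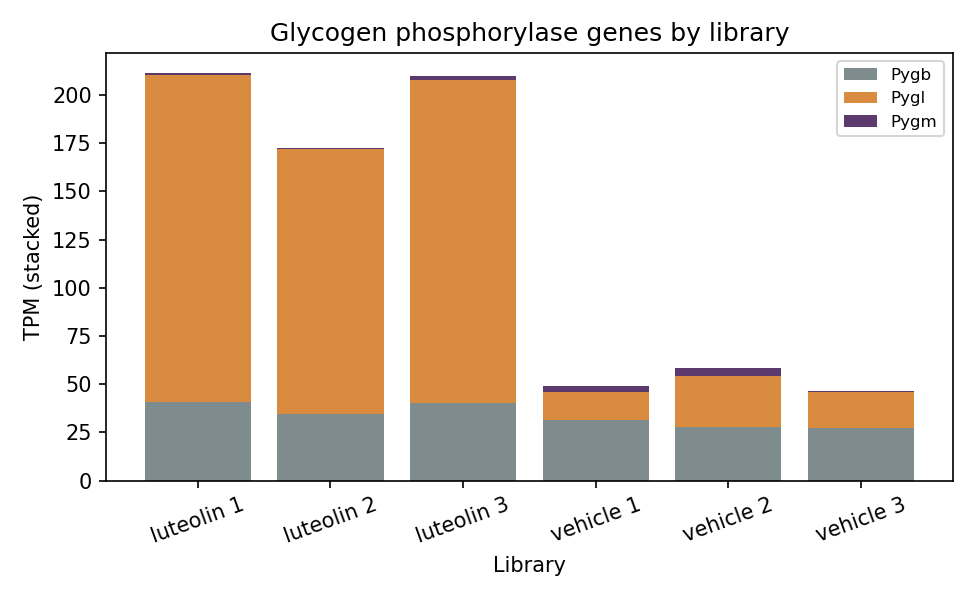
Stacked TPM of Pygb, Pygl and Pygm in each library, luteolin left of vehicle. Pygb is slightly taller with luteolin, Pygl fills most of the luteolin bars, and Pygm is a thin band visible mainly in vehicle 1 and vehicle 2.

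Gaa (gene ID 14387), acid alpha-glucosidase, breaks down glycogen inside lysosomes. It had 44.4, 46.0 and 45.3 CPM in luteolin 1, 2 and 3, against 44.3, 59.9 and 42.2 CPM in vehicle 1, 2 and 3. The luteolin values lay inside the vehicle range, which was stretched by vehicle 2. The difference of -0.11 on the log2 scale (SE 0.131, edgeR adjusted p = 0.495) was 0.06 without vehicle 2. Of the 11 other lysosomal glycosidases, 7 fell and 1 rose, while 3 missed the threshold, beside 30.4% lower and 28.5% higher over all tested genes. Their median log2 fold change was -0.39. Gusb, beta-glucuronidase, fell by 1.10 on the log2 scale (edgeR adjusted p = 9.68e-05) (its counts had decimals in all 6 libraries), and Gla, Manba, Glb1 and Man2b1 fell by 0.90, 0.82, 0.64 and 0.39. The calls of Hexa (-0.68) and of Fuca1 (-0.35) ended when any 1 luteolin library was left out, with the muscle covariate and with the length correction. Macrophage genes, which mark cells rich in lysosomes, moved in the same libraries: 10 of 10 tested fell, and their sum was 37.5 to 50.8 CPM with luteolin and 220.2 to 382 CPM with vehicle. Their part in the glycosidase values was not tested.

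Glycogen synthesis begins with glycogenin, a protein that attaches the first glucose units to itself. Gyg (gene ID 27357) had 686, 603 and 636 CPM in luteolin 1, 2 and 3, against 155.4, 243 and 193.9 CPM in vehicle 1, 2 and 3. The groups were far apart, and as for Pygl vehicle 1 was the lowest and vehicle 2 the highest of its group. The means were 642 ± 41.6 CPM with luteolin and 197 ± 43.7 CPM with vehicle (SD, n = 3), with Gyg higher by 1.70 on the log2 scale (SE 0.155, edgeR adjusted p = 0.000163). Over the alternatives it lay between 1.55 and 1.88.

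Gys1 (gene ID 14936), the glycogen synthase of muscle and most other tissues, was the least abundant of the members that act in synthesis. It had 13.0, 14.1 and 14.7 CPM in luteolin 1, 2 and 3, against 17.6, 14.9 and 14.8 CPM in vehicle 1, 2 and 3. The highest luteolin library lay just under the lowest vehicle library, and the difference of -0.18 on the log2 scale (SE 0.112, edgeR adjusted p = 0.208) did not pass. Gys2, the liver synthase, had too few counts to be tested. In TPM, Gyg exceeded Gys1 by 127, 102.4 and 102.7 times in luteolin 1, 2 and 3, against 21.2, 39.2 and 31.4 times in vehicle 1, 2 and 3.

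Gbe1 (gene ID 74185), the branching enzyme, was nearly level across the libraries. It had 52.4, 52.8 and 55.2 CPM in luteolin 1, 2 and 3, against 52.2, 54.7 and 50.4 CPM in vehicle 1, 2 and 3. The log2 fold change was 0.03 (SE 0.0596, edgeR adjusted p = 0.694), with a sign that depended on the scaling (from -0.09 to 0.06 over the alternatives).

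Ugp2 (gene ID 216558) makes UDP-glucose, the donor for the synthase. It had 108.3, 100.8 and 99.7 CPM in luteolin 1, 2 and 3, against 115.3, 118.9 and 108.1 CPM in vehicle 1, 2 and 3. Luteolin 1 overlapped vehicle 3, and the difference of -0.15 on the log2 scale (SE 0.0621, edgeR adjusted p = 0.0732) did not pass. With library sizes only it was -0.26 and passed (adjusted p = 0.0115, over the alternatives 0.0115 to 0.204), as it did with upper quartile factors, on FPKM, and without vehicle 3 (-0.20).

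Ppp1r3c (gene ID 53412) encodes the targeting subunit also called protein targeting to glycogen, which brings protein phosphatase 1 to the glycogen particle. It had 597, 542 and 567 CPM in luteolin 1, 2 and 3, against 117.3, 153.6 and 96.6 CPM in vehicle 1, 2 and 3. Every luteolin library exceeded every vehicle library by more than 3-fold. The means were 569 ± 27.5 CPM with luteolin and 122 ± 28.9 CPM with vehicle (SD, n = 3), with Ppp1r3c higher by 2.21 on the log2 scale (SE 0.161, edgeR adjusted p = 8.48e-05). Over the alternatives it lay between 2.05 and 2.41. In TPM, Ppp1r3c exceeded the sum of the 4 other tested targeting subunits by 40.0, 36.2 and 33.9 times in luteolin 1, 2 and 3, against 8.09, 11.9 and 6.83 times in vehicle 1, 2 and 3.

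The order of the members by level differed between the groups. With luteolin, mean TPM ran from 667 ± 49.8 for Gyg through Ppp1r3c (352 ± 20.1), Pygl (158 ± 18.2), Ugp2 (63.8 ± 3.56), Pygb (38.6 ± 3.36), Gbe1 (29.3 ± 0.638), Gaa (20.6 ± 0.200) and Gys1 (6.06 ± 0.337) to Pygm (1.07 ± 0.914; SD, n = 3 each), and no neighbours in this order overlapped. With vehicle the order was Gyg (205.2 ± 45.0), Ppp1r3c (75.9 ± 18.5), Ugp2 (70.2 ± 4.22), Pygb (29.0 ± 2.29), Gbe1 (28.7 ± 1.48), Gaa (22.3 ± 4.47), Pygl (19.8 ± 5.99), Gys1 (6.84 ± 0.798) and Pygm (2.58 ± 1.98; SD, n = 3 each). There Ppp1r3c overlapped Ugp2, Pygb overlapped Gbe1, Gbe1 overlapped Gaa and Gaa overlapped Pygl. Gyg stood at or above 99.0% of all listed genes with luteolin and 96.7% with vehicle, Pygl at or above 95.7% with luteolin and 68.0% with vehicle, and Gys1 at or above 47.4% with luteolin and 46.9% with vehicle.

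Of the 4 tested subunit genes of phosphorylase kinase, the enzyme that activates phosphorylase, Phka2 and Phkb were higher with luteolin, and Phka1 and Phkg2 did not pass. Phka2, the liver form of the regulatory alpha subunit, had 209.1, 199.9 and 192.8 CPM in luteolin 1, 2 and 3, against 64.7, 79.2 and 71.7 CPM in vehicle 1, 2 and 3. It rose 2.79-fold (log2 fold change 1.48, SE 0.0833, edgeR adjusted p = 4.54e-05). Its counts had decimals in all 6 libraries, which leaves its reads uncertain where similar genes share them. Phkb, the beta subunit, rose 1.42-fold, at 105 ± 2.55 CPM with luteolin and 74.3 ± 5.47 CPM with vehicle (SD, n = 3; edgeR adjusted p = 0.000731). Phka2 made up 90.4%, 90.1% and 89.9% of the TPM of both alpha subunit genes in luteolin 1, 2 and 3, against 77.0%, 77.0% and 74.9% in vehicle 1, 2 and 3. Of the 5 tested genes of glycogen breakdown and its kinase outside the members, 2 rose, 0 fell and 3 did not pass, beside 28.5% higher over all tested genes. Phka1, the muscle form of the alpha subunit, was at 1.01-fold (edgeR adjusted p = 0.918), and Phkg2, a catalytic subunit, at 1.10-fold (adjusted p = 0.205), both named after their values were seen. The counts of Phkg2 also had decimals in all 6 libraries.

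Among genes of the wider pathway, outside the members, more fell than rose. Of 51 genes in 7 lists, 45 were tested: 6 rose, 22 fell and 17 did not pass, beside 28.5% higher and 30.4% lower over all tested genes, with a median log2 fold change of -0.22 against -0.02. The remaining 6, Phkg1, Gys2, Ppp1r3a, Ppp1r3g, Epm2a and G6pc, had too few counts. With library sizes only, 5 rose and 23 fell, and the lower share of all called genes was 63.6% in place of 51.6%. Of the 22 that fell in the fit reported, 7 were other lysosomal glycosidases, 5 were genes of glucose handling and 3 used UDP-glucose. Lists closer to glycogen were mixed. In breakdown and its kinase 2 rose and 0 fell. In the list of other synthesis enzymes 0 rose and 3 fell, and its tested genes were Pgm1, Pgm2 and Pgm2l1. The synthesis genes Gyg, Gys1, Gbe1 and Ugp2 are members and were not counted here. Among phosphatase subunits 1 rose and 3 fell, and among synthase kinases and quality control 2 rose and 1 fell.

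All 3 tested phosphoglucomutase genes fell, beside 30.4% lower over all tested genes, although the call of Pgm1 was not stable. Their enzyme family moves phosphate on glucose and related sugars. Pgm2l1 fell by 1.44 on the log2 scale, to 4.44 ± 0.283 CPM with luteolin, against 12.04 ± 1.51 CPM with vehicle (SD, n = 3; edgeR adjusted p = 0.000265). Pgm2 fell by 0.59, and Pgm1 by 0.22, a call that ended under 11 of 17 alternatives: when any 1 library other than luteolin 1 was left out, and with DESeq2, relative log expression factors, no filter, the replicate block, the muscle covariate and the length correction (adjusted p = 0.0479 in edgeR, and 0.00994 to 0.144 over the alternatives). Among other phosphatase subunits the targeting subunit Ppp1r3b, the main form of liver, went opposite to Ppp1r3c. It fell by 1.53, to 1.10 ± 0.199 CPM with luteolin, against 3.20 ± 0.147 CPM with vehicle (SD, n = 3; edgeR adjusted p = 0.00123). Ppp1r3e rose by 0.73, a call that ended without luteolin 2, luteolin 3 or vehicle 3 (0.67 to 0.69). The catalytic subunits Ppp1cb and Ppp1ca fell by 0.31 and 0.19. The call of Ppp1ca was lost when any 1 library other than vehicle 2 was left out. It was also lost after a correction for gene length, at -0.06. The counts of Ppp1ca had decimals in all 6 libraries.

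Of 4 tested genes of synthase kinases and glycogen quality control, 2 rose, 1 fell and 1 did not pass, beside 28.5% higher and 30.4% lower over all tested genes. Gsk3b, a kinase that inhibits glycogen synthase, rose by 0.41 on the log2 scale, with 150 ± 5.63 CPM with luteolin and 113 ± 4.43 CPM with vehicle (SD, n = 3; edgeR adjusted p = 0.000937). Nhlrc1, which encodes the ubiquitin ligase malin, rose by 0.59 (the call ended under 10 of 17 alternatives: DESeq2, upper quartile factors, library sizes only, both FPKM fits, the muscle covariate, and without luteolin 1, luteolin 2, vehicle 1 or vehicle 3, with values down to 0.31). Stbd1, which tethers glycogen to membranes, fell by 0.58 (the call ended without luteolin 1, luteolin 2, vehicle 1 or vehicle 2, and with the replicate number as a block, where its adjusted p was 0.0541).

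Genes of glucose entry and of other uses of UDP-glucose were lower or did not pass. Of 8 tested genes of glucose handling, 5 fell and 0 rose (median log2 fold change -0.41), beside 30.4% lower and 28.5% higher over all tested genes. The glucose transporter gene Slc2a1 fell by 0.64, to 76.3 ± 2.76 CPM with luteolin, against 119 ± 26.8 CPM with vehicle (SD, n = 3; edgeR adjusted p = 0.00934), and the hexokinase genes Hk1 and Hk2 each fell by 0.38. Hk3, the hexokinase typical of myeloid cells, had 0.258, 0.129 and 0.193 CPM in luteolin 1, 2 and 3, against 2.86, 7.20 and 3.46 CPM in vehicle 1, 2 and 3, from 4, 2 and 3 counts with luteolin and 49, 123 and 58 counts with vehicle, a log2 fold change of -4.49. Slc2a3 fell by 2.14, at 0.431 ± 0.269 CPM with luteolin and 1.92 ± 0.544 CPM with vehicle (SD, n = 3). The macrophage genes described above and the neutrophil genes were also lower with luteolin. Their part in the Hk3 and Slc2a3 values was not tested. Of 7 genes that use UDP-glucose or its relatives, 3 fell and 0 rose (median -0.22), beside the same shares over all tested genes. Ugcg, glucosylceramide synthase, fell by 1.92, Uxs1, which makes UDP-xylose, by 0.78, and Ugdh, which makes UDP-glucuronate, by 0.65. The counts of Uxs1 had decimals in all 6 libraries.

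**Figure D4:**
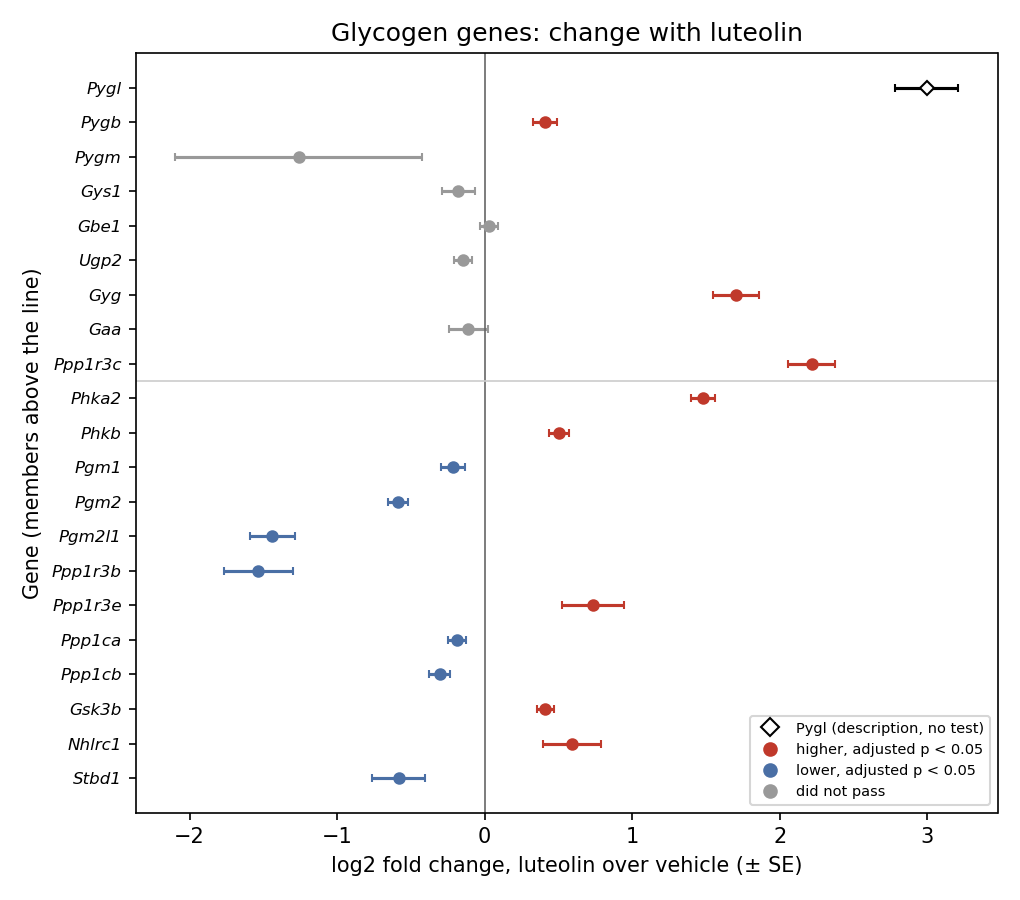
Log2 fold change, luteolin over vehicle, with its standard error, for the members (above the line) and the other genes of glycogen breakdown, synthesis and control that passed the test (below it). Pygl (open diamond, no test) lies at 2.995, Ppp1r3c, Gyg and Phka2 lie to the right at 2.21, 1.70 and 1.48, and Pgm2l1 and Ppp1r3b lie to the left at -1.44 and -1.53.

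Cell type markers moved with the groups too, in a comparison where 28.5% of all tested genes were higher and 30.4% lower with luteolin. In bulk tissue, fewer cells of a type and less RNA per cell cannot be told apart. Of 12 corneal epithelial genes, 11 rose and 1 (Krt14) fell, and their summed level was 79882 to 82454 CPM with luteolin and 51904 to 59603 CPM with vehicle, a ratio of mean sums of 1.45. Markers of neutrophils, cells that also store glycogen, were near 0 with luteolin: their sum was 1.23 to 2.38 CPM with luteolin and 32.9 to 49.0 CPM with vehicle, and 4 of 4 tested fell. S100a8 had 0 counts in the luteolin libraries, against 92, 75 and 208 in vehicle 1, 2 and 3. Ly6g and Retnlg also had 0 there but were too low to test. In vehicle 1, 2 and 3 Ly6g had 1, 1 and 1 counts and Retnlg 5, 5 and 10. The listed Mpo and Elane were absent from the expression values. Vessel genes (7 of 8 lower, sum 34.9 to 39.9 CPM with luteolin and 139 to 233 CPM with vehicle) and conjunctival genes (3 of 3 tested lower, 1734 to 2682 CPM with luteolin and 4076 to 4401 CPM with vehicle) were lower. Of 10 keratocyte genes 5 fell, with sums of 1919 to 4368 CPM with luteolin and 3441 to 8899 CPM with vehicle, and of 7 corneal endothelial genes 1 rose and 1 fell, with sums of 422 to 608 CPM with luteolin and 373 to 521 CPM with vehicle. The part of these shifts in the levels of the members was not tested.

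Outside the members, the profiles most like that of Pygl over the 6 libraries were those of Adamts18, Fras1, Arntl, Gal3st1 and Cyp4f15. Likeness was the root mean square difference of log2 CPM after each gene was centred on its own mean. It was ranked over 10901 genes outside the members with a mean of at least 5 CPM. Genes with model names (Gm numbers, Rik or LOC) were passed over, so nearer profiles may exist among them. A pattern shared by 6 libraries of 2 groups says little beyond a like difference between the groups. The difference was 0.232 for Adamts18, a secreted metalloproteinase, 0.247 for Fras1, an extracellular matrix protein of epithelial basement membranes, 0.282 for Arntl, a core circadian clock factor, 0.302 for Gal3st1, a glycolipid sulfotransferase, and 0.307 for Cyp4f15, a fatty acid hydroxylase. Among the members it was 0.453 for Ppp1r3c, 0.660 for Gyg and at least 1.34 for the others. Arntl had 53.4, 60.3 and 63.4 CPM in luteolin 1, 2 and 3, against 7.77, 9.66 and 5.90 CPM in vehicle 1, 2 and 3.

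**Figure D5:**
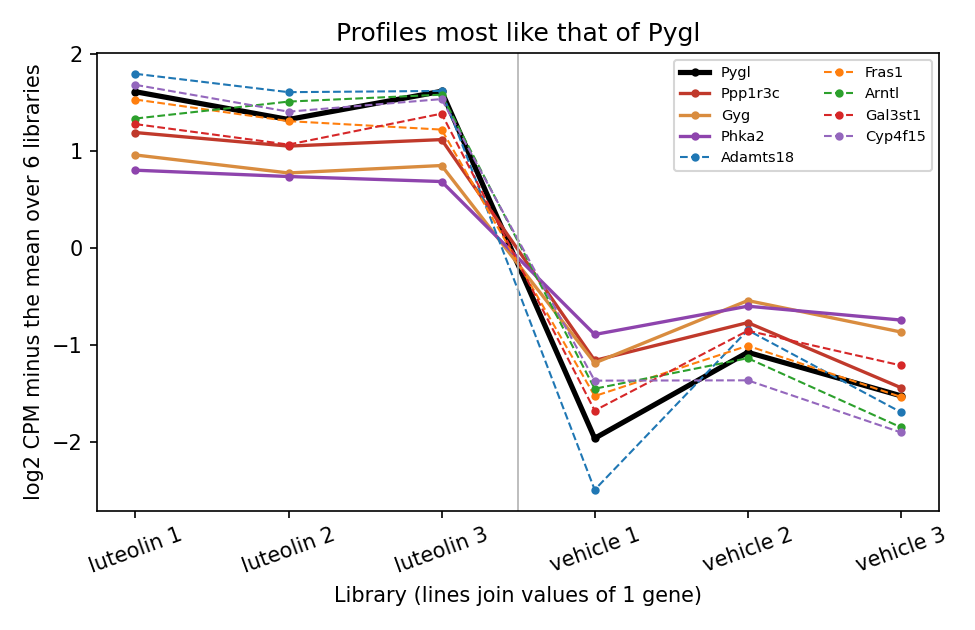
Log2 CPM of each gene minus its mean over the 6 libraries, luteolin left of vehicle. Solid lines are Pygl and 3 other glycogen genes, and dashed lines are the 5 genes with the most similar profiles among those compared. All lie above 0 in the 3 luteolin libraries and below 0 in the 3 vehicle libraries, and most are highest in vehicle 2 within the vehicle group.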

How the data were processed

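RNA of frozen whole corneas was sequenced from TruSeq libraries, per the labels' protocols. Bowtie2 2.2.5, RSEM 1.2.12 and mm9 stand in the submitters' processing notes, and the sources used here give neither annotation nor strand setting. The deposited table holds, per the file headers, estimated counts, FPKM, TPM and normalized read counts (a signal, not used here) for 17794 genes. Libraries were grouped by title. Estimated counts were rounded and tested with edgeR 4.0.16 (R 4.3.3): filterByExpr (minimum count 10, minimum total 15) left 13838 genes, scaled by TMM. The quasi-likelihood test had no replicate block, and p-values were Benjamini-Hochberg adjusted over all tested genes. CPM are counts over TMM-scaled library size. TPM are the authors' deposited values. An SE is the log2 fold change over the square root of F. Alternatives used DESeq2 1.42.0, limma 3.58.1 on log2 FPKM, and other settings. The code was tested on simulated data. Members and lists were chosen with earlier results of these data known. The genes named were all members, all pathway genes that passed, and the 5 nearest profiles to Pygl among the genes compared. Ppp1r3a, Gys2 and other untested genes were named beside these, and some genes of the lists are not reported here. No libraries of 1 group agreed within sampling noise (chi-square over its degrees of freedom, 6.30 to 30.3).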

Additional observations from a re-analysis of the deposited data

How the results depend on the processing

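The log2 fold change of Pygl lay between 2.80 and 3.25 over 17 alternatives, and the difference in its share of phosphorylase TPM was 37.3 to 45.1 percentage points with each library left out and from FPKM or counts. Pygb, Gyg and Ppp1r3c were higher under each of the 17 alternatives. Of the 8 members other than Pygl, 1 was lower (Ugp2) in place of 0 with upper quartile factors, with library sizes only and with limma-trend on log2(FPKM + 1) or log2(FPKM + 0.1). Leaving out each library gave 0 to 2 lower members and 3 to 5 called in all, the highest without vehicle 3 (Ugp2 and Pygm); the cause was not tested. The sign of Gbe1, which never passed, turned with upper quartile factors (-0.067), library sizes only (-0.086), FPKM with either pseudocount (-0.087 and -0.090), a correction for gene length added after seeing the data (-0.013) and without vehicle 3 (-0.016; without single libraries -0.016 to 0.061), and that of Gaa without vehicle 2 (0.065; without single libraries -0.22 to 0.065). Between 22 and 29 pathway genes were called over the alternatives, 28 in the fit reported, and between 6795 and 8493 of all genes, against 8157. Of 36 genes fitted singly, 25 kept direction and side of the threshold under every alternative. The folds of Pgm2l1, Ppp1r3b, Slc2a3 and Hk3 were smaller on log2(FPKM + 1), -0.73, -0.54, -0.48 and -1.25, since a pseudocount shrinks low genes. Correlations of same-numbered libraries' deviations from their group means were -0.15, 0.03 and 0.01. With 3 libraries in each group these cannot decide whether the numbers pair the samples, and the labels do not say. With the replicate number as a block 7934 genes were called, 3 of the other 8 members (all higher) and 26 pathway genes, and the log2 fold change of Pygl was 3.02. Pygm had 12 to 127 counts per library, which limits its precision.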
